A study of Mus musculus with 16 samples.

Results

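The genes described here encode the MHC class I and class II antigen presentation machinery and proteins that interferons induce. They are 38 genes, chosen by name from what they are known to do, out of 25611 entries in the gene count table. All 38 were found in the table, each in 1 entry, and all 38 passed the filter on low counts. RNA-Seq of the thyroid was done in 16 female mice, 4 in each of 4 groups. The WT(ND) group was wild type and was fed NIH-31, the normal diet (ND). The WT(LID) group was wild type and was fed TD.95125, a low iodine diet (LID). Mice with a conditional loss of *Glis3* carried the alleles *Glis3*<tm2Amj> and *Pax8*<tm1.1(cre)Mbu>, given with the background B6;129. They are called *Glis3*-Pax8Cre(ND) when fed the ND and *Glis3*-Pax8Cre(LID) when fed the LID. The labels give the strain of all mice as C57BL/6, the age as 1 month and weaning as at 3 weeks. The Cre gene was inserted at *Pax8*, a transcription factor gene of the thyroid follicular cells, and Cre removes exon 5 of *Glis3*, so that other cells of the gland keep the whole gene. The labels do not say whether the WT mice carried the floxed *Glis3* allele or Cre. A lack of iodine lowers thyroid hormone synthesis, which raises the pituitary hormone TSH and stimulates the gland.

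MHC class I molecules present peptides from inside the cell to CD8+ T cells and are made by nearly all cells. The immunoproteasome cuts the peptides, the TAP transporter carries them into the endoplasmic reticulum, and tapasin helps to load them. MHC class II molecules present peptides from outside the cell to CD4+ T cells and are made mainly by dendritic cells, macrophages and B cells. Thyroid follicular cells can make class II molecules as well, mostly when exposed to interferon-gamma, and do so in autoimmune thyroid disease. Type I interferons act through the factor ISGF3, which contains STAT2 and IRF9 and binds the interferon-stimulated response element (ISRE) of antiviral genes. Interferon-gamma acts at the GAS element and through the regulators IRF1, CIITA and NLRC5. Many of these genes are also made at a low level without infection.

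Counts on genes summed to between 13892352 and 461077969 read pairs in a library. Values are given as CPM, the count of a gene per 1000000 counts of a library whose size was scaled by edgeR's TMM method. Over the 16 libraries, 3 counts correspond to between 0.00674 and 0.188 CPM, which is the limit that a count of 0 allows, for counting error only. The sum over 6 follicular cell markers ran from 97472 to 329098 CPM, most of it from *Tg*, as in thyroid tissue. The level of *Glis3*, in the order of replicates 1 to 4 used throughout, was 79.2, 85.8, 81.8 and 45.2 CPM in the WT(ND) mice. It was 105, 93.01, 101 and 85.8 CPM in the *Glis3*-Pax8Cre(ND) mice, 125, 174, 165 and 161 CPM in the WT(LID) mice and 150.3, 119.5, 204 and 185 CPM in the *Glis3*-Pax8Cre(LID) mice. Counts over the whole gene do not test the loss of 1 exon, so they do not check the genotype labels.

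Some libraries stood apart by their cell type markers. The sum over 11 markers of T cells and thymocytes was 183, 51.2, 10.8 and 9.67 CPM in the WT(ND) mice and 12.4, 14.9, 14.02 and 3121 CPM in the *Glis3*-Pax8Cre(ND) mice. It was 5.15, 5.05, 259 and 5.17 CPM in the WT(LID) mice and 8.73, 9.21, 8.66 and 387 CPM in the *Glis3*-Pax8Cre(LID) mice. WT(ND) replicate 1, *Glis3*-Pax8Cre(ND) replicate 4, WT(LID) replicate 3 and *Glis3*-Pax8Cre(LID) replicate 4 were over 100 CPM, and the counts below are also given without these 4 mice rich in thymocyte markers. *Glis3*-Pax8Cre(ND) replicate 4 was the highest, and it also had 1132 CPM of 6 pan-leukocyte markers against 80.2 to 214 CPM in the other 15 mice. It was the highest mouse of its group for 26 of the 38 genes and the lowest for 6. Mice with few of these markers had like counts. *Glis3*-Pax8Cre(LID) replicate 2 was the highest of its group for 24 of the 38 and WT(ND) replicate 4 for 22.

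**Figure D1:**
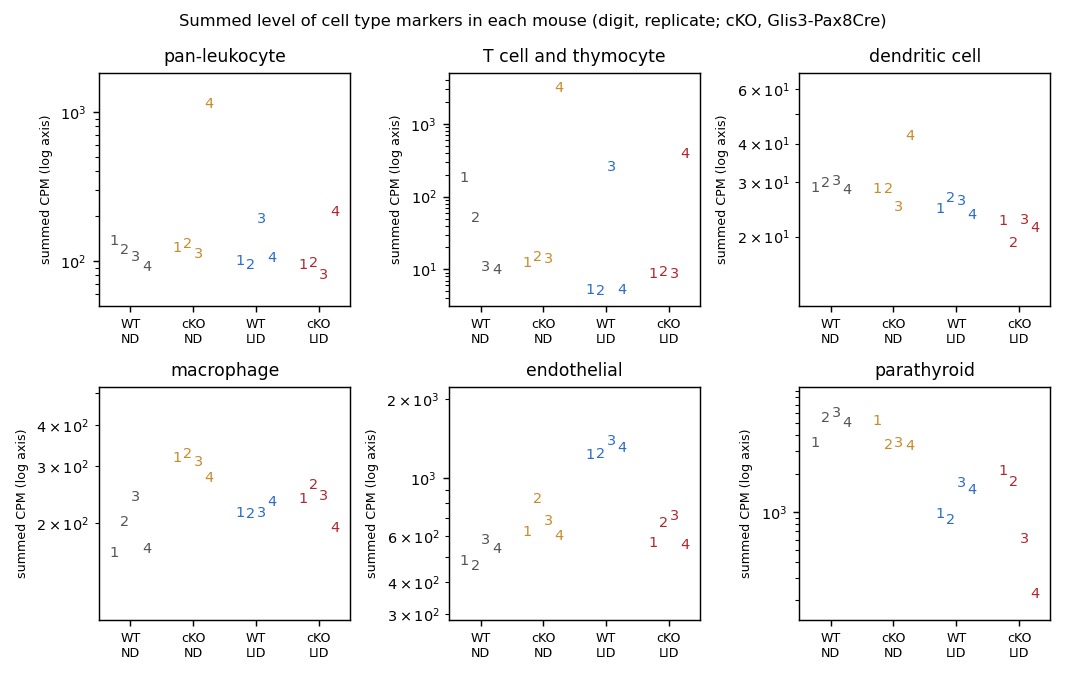
Summed CPM (log axis) of the markers of 6 cell types in each mouse, with each digit giving the replicate number in its group. *Glis3*-Pax8Cre(ND) replicate 4 is far above the others for the T cell and thymocyte list, at 3121 CPM, and the macrophage sums of the *Glis3*-Pax8Cre(ND) mice lie above those of the WT(ND) mice.

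RefSeq promoter sequences (GRCm38.p6, from 250 bases before to 50 after the start of the gene) were at hand for 28 of the 38 genes, and 3 motifs were searched in them on both strands. The ISRE core GAAANNGAAA, in which N is any base, was in 11 of the 28 genes (39.3%), against 3.99% of all 27025 genes with a promoter in the table and 3.44% of the 32851 promoters. The GAS motif TTCNNNGAA was in 7 (25.0%), against 9.55% of all genes and 8.3% of promoters. The Y box CTGATTGG of MHC promoters was in 6 (21.4%), against 4.7% of all genes and 4.1% of promoters. The 6 genes hold 5 distinct sites, because *Psmb9* and *Tap1* face away from each other and share 1. These are matches of letters and not measured binding, and copies of a motif that overlap were each counted as matches. The promoters below show each motif in genes whose values follow, with the matches in capitals and each sequence 5′ to 3′ on the strand of its gene. In *H2-Aa* and *H2-Eb1* the capitals mark the Y box, at bases -51 to -44 and -62 to -55 from the start. In *B2m* they mark an ISRE core at bases -139 to -130, and in *Gbp3* a pair of overlapping ISRE cores on the opposite strand. In *Oas1a* they mark a GAS motif at bases -98 to -90 and a pair of overlapping ISRE cores at bases -20 to -5. *Gbp7* holds a pair of GAS motifs and an ISRE core on the opposite strand, and *Irf1* a GAS motif at bases -90 to -82.
*H2-Aa* (minus strand, chr17:34287774-34288073): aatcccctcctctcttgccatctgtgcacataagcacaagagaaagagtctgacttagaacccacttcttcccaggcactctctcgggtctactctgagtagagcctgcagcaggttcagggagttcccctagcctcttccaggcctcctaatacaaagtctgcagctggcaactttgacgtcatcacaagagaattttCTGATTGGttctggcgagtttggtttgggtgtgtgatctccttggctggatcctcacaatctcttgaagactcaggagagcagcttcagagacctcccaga
*H2-Eb1* (plus strand, chr17:34305617-34305916): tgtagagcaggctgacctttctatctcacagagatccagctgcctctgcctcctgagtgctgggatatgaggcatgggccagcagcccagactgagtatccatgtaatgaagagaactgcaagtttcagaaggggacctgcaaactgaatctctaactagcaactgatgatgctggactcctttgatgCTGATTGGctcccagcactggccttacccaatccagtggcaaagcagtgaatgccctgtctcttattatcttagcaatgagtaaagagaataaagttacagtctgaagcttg
*B2m* (plus strand, chr2:122147437-122147736): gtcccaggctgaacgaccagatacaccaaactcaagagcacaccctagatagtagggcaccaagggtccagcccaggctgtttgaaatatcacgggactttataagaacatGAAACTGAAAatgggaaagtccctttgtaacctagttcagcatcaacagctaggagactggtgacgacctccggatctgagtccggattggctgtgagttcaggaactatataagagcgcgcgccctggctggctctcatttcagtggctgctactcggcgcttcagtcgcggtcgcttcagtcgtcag
*Gbp3* (plus strand, chr3:142559794-142560093): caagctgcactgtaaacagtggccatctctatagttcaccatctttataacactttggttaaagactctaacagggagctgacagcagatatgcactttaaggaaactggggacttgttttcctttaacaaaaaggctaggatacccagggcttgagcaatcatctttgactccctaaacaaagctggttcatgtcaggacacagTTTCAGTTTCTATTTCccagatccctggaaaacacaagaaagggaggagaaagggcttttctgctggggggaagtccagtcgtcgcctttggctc
*Oas1a* (minus strand, chr5:120907476-120907775): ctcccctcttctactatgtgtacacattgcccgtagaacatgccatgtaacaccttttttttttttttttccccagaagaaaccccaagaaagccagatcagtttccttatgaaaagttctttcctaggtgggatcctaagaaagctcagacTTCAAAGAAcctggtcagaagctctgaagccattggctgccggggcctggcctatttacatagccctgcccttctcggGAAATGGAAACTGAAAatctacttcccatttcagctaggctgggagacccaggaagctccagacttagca
*Gbp7* (plus strand, chr3:142530086-142530385): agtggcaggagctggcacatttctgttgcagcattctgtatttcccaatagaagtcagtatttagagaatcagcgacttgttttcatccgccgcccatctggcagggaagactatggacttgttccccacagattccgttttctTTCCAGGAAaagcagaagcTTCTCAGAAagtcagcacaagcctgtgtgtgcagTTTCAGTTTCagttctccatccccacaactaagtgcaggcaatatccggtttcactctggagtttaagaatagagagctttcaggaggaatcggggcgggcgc
*Irf1* (plus strand, chr11:53769764-53770063): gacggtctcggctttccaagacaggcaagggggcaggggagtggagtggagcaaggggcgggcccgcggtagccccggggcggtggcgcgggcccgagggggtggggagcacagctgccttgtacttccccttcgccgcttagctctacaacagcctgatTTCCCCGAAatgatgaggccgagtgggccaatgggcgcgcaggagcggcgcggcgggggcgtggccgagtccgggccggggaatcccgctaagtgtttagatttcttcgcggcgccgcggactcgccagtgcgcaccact

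Levels between genes were compared as CPM per kb of exon, with the exons of all GENCODE transcripts of a gene joined. Counts were on RefSeq genes, so the order of genes depends on the lengths used. In WT(ND), *B2m*, the light chain of every class I molecule, was the highest at a mean of 573 CPM per kb. It was followed by *Cd74*, the class II invariant chain, at 324 CPM per kb and by the class I heavy chain *H2-K1* at 191 CPM per kb. The class II chains *H2-Eb1*, *H2-Ab1* and *H2-Aa* were at 55.1, 49.5 and 35.5 CPM per kb. In CPM, without the lengths, their order was the reverse, with WT(ND) means of 107, 127 and 135 CPM. The means of *B2m*, *Cd74* and *H2-K1* were then 493, 543 and 561 CPM, also in the reverse order. The interferon-induced effectors ran from *Bst2* at 39.9 CPM per kb, through *Rsad2* at 4.75 CPM per kb, to *Mx1* at 0.455 CPM per kb. *Tapbp*, which encodes tapasin, was at 63.1 CPM per kb in WT(ND) and 126 CPM per kb in WT(LID), where *Cd74* was at 152 CPM per kb.

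The LID was compared with the ND within each genotype. In WT mice 26 of the 38 genes were lower on the LID, where 20.8% of all 16630 genes tested were called lower, and 2 genes were higher, where 20.9% of all genes were called higher. In *Glis3*-Pax8Cre mice 33 of the 38 were lower on the LID, against 12.3% of all genes, and 1 was higher, against 13.1% of all genes. The genes that fell included all 4 class II genes, all 3 guanylate-binding protein genes and most of the interferon-induced effectors in both genotypes. The largest declines of the 38 in WT mice were those of *Mx2* (log2 fold change -1.54 ± 0.31, with its SE), *Ifit3* (-1.37 ± 0.33) and *Ifit1* (-1.29 ± 0.31). *Tapbp* rose in both genotypes, and the antiviral enzyme gene *Oas1a* rose in WT mice. Because whole glands were sequenced, fewer cells of a type and less RNA per cell cannot be told apart.

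Genes were called at a Benjamini-Hochberg adjusted p under 0.05 in edgeR's quasi-likelihood test, fitted over all 16 mice. The median log2 fold change of the 38 genes was -0.57 in WT mice and -0.97 in *Glis3*-Pax8Cre mice, where the medians of all genes tested were -0.028 and -0.033. The diet comparisons share no mice, and 24 of the 38 genes (63.2%) were lower in both, against 7.25% of all genes tested. These 24 are 92.3% of the 26 genes lower in WT mice and 72.7% of the 33 lower in *Glis3*-Pax8Cre mice. Over all genes tested the corresponding shares are 34.8% and 59.1%. Without the 4 mice with over 100 CPM of T cell and thymocyte markers, 28 genes were lower and 1 higher in WT mice, and 29 were lower and 1 higher in *Glis3*-Pax8Cre mice. Here and below, shares of all genes come from edgeR's test over all 16 mice, and counts from other fits have no share of their own. Markers of other cells also moved with the diet. In WT mice, where 20.9% of all genes tested were called higher and 20.8% lower, 5 of 5 endothelial markers rose. Their sum was 459 to 579.6 CPM in the WT(ND) mice and 1225 to 1390.02 CPM in the WT(LID) mice. All 3 parathyroid markers fell, with sums of 3476 to 6005 CPM on ND and 858 to 1676 CPM on LID, as did all 3 adipocyte markers, with sums of 251 to 723 CPM and 77.9 to 136 CPM. Of the 2 C cell markers 1 fell, with sums of 2428 to 3885 CPM and 1159 to 1622 CPM. The ND and LID groups of *Glis3*-Pax8Cre mice had endothelial sums of 598 to 832 CPM and 552 to 712 CPM, parathyroid sums of 3289 to 5179.9 CPM and 225 to 2099 CPM, adipocyte sums of 119 to 268 CPM and 86.1 to 219 CPM and C cell sums of 1026 to 2211 CPM and 1024 to 1803 CPM. Their part in these results was not tested.

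**Figure D2:**
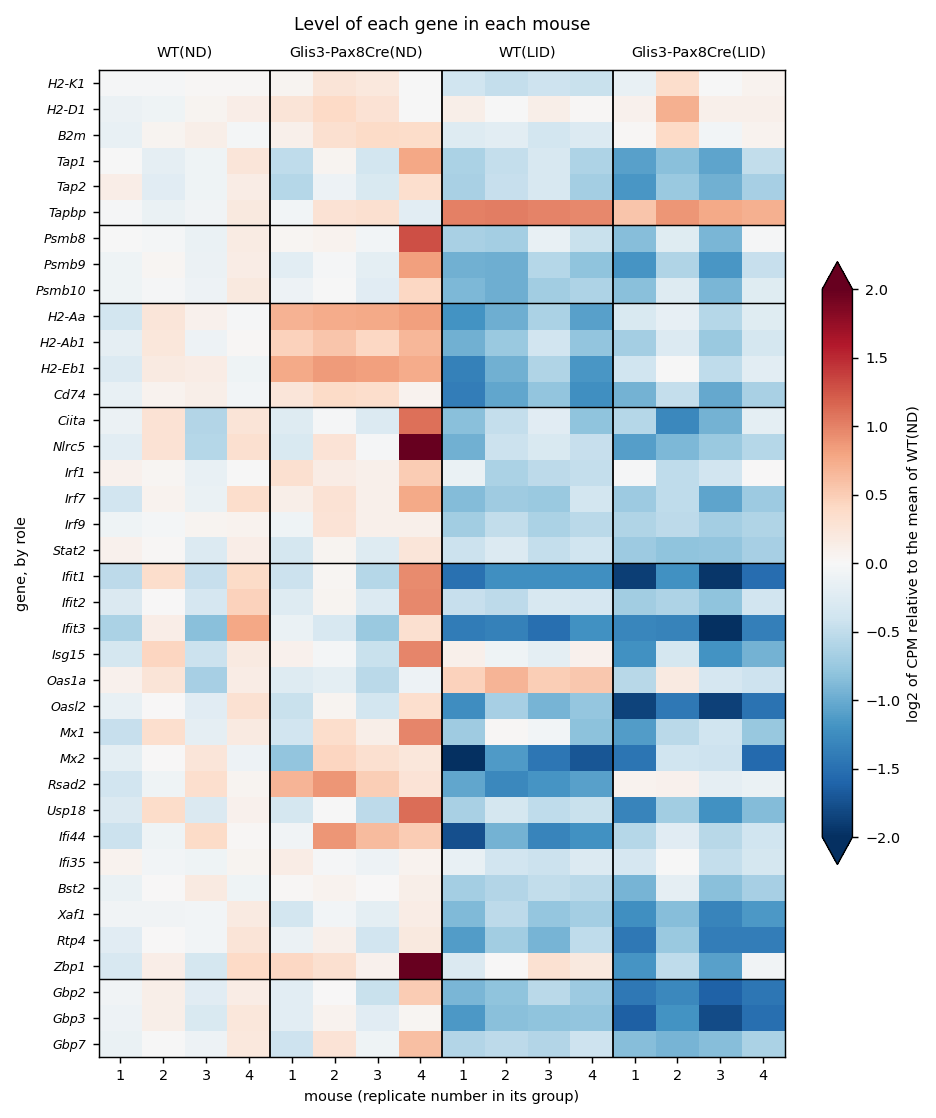
Log2 of the CPM of each of the 38 genes in each of the 16 mice, relative to the mean of the gene in WT(ND), with genes in rows by role and mice in columns by group. Most rows turn blue (lower) in the LID mice of both genotypes, *Tapbp* turns red (higher), and *Glis3*-Pax8Cre(ND) replicate 4 stands out for *Psmb8*, *Nlrc5* and *Zbp1*.

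**Figure D3:**
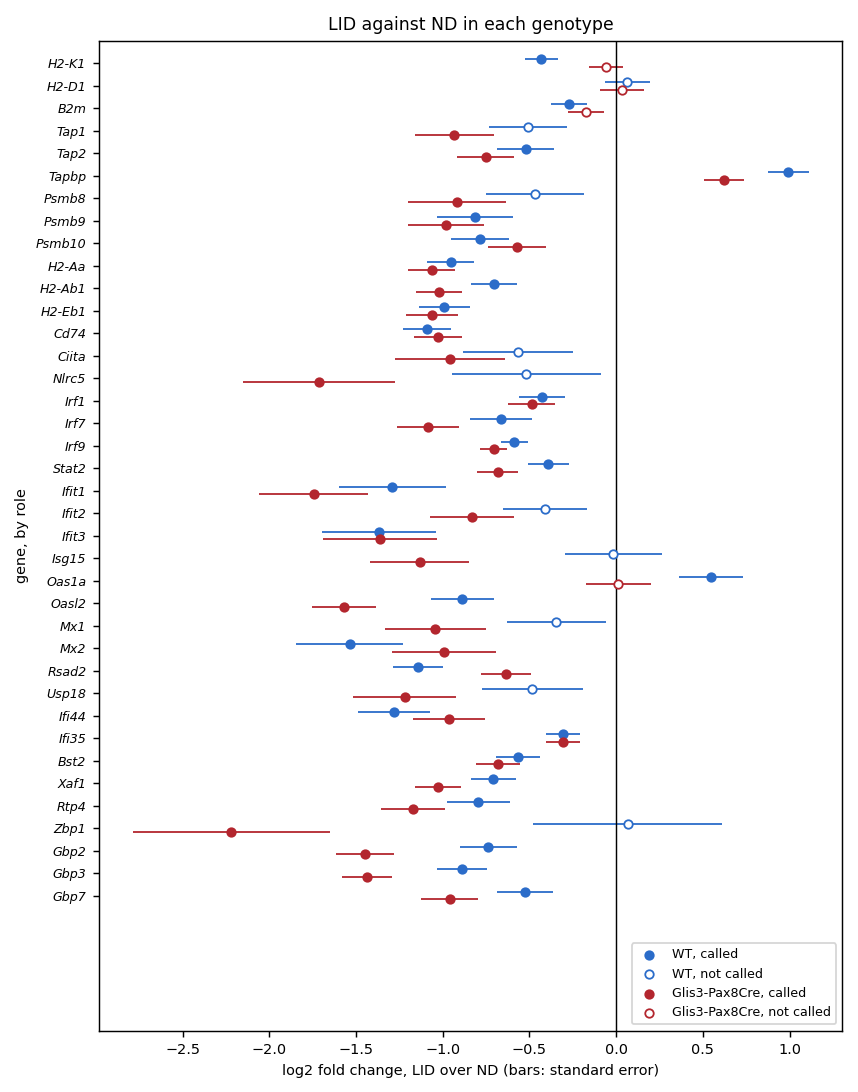
Log2 fold change on LID over ND for each of the 38 genes in WT mice (blue) and in *Glis3*-Pax8Cre mice (red), with bars for the standard error and filled points for genes called at an adjusted p under 0.05. 26 genes lie at the lower side as filled points in WT mice and 33 in *Glis3*-Pax8Cre mice.

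*Glis3*-Pax8Cre mice were compared with WT mice on each diet to ask how the loss of GLIS3 in follicular cells bears on these genes. On the LID 6 genes were higher and 7 lower, so the genes did not move as a group. The higher ones were *Rsad2*, *Ifi44*, the class II genes *H2-Aa* and *H2-Eb1*, and the class I genes *H2-K1* and *B2m*. The lower ones were *Isg15*, *Oas1a*, *Oasl2*, *Xaf1*, *Stat2*, *Gbp2* and *Gbp3*. Both sets held interferon-induced effectors, 2 among the higher genes and 4 among the lower. Among all genes tested 14.9% were called higher and 15.4% lower, and so the share of the 38 was near that of the background in both directions (15.8% and 18.4%). On the ND 4 genes were higher (10.5%), *H2-Aa*, *H2-Ab1*, *H2-Eb1* and *Rsad2*, which was near the 10.3% of all genes tested. On this diet 0 were lower, against 9.25% of all genes. At an unadjusted p under 0.05 edgeR gave 7 higher and 0 lower of the 38 on the ND. A larger share of all genes passed that limit, 5609 of 16630 in either direction. DESeq2 called 6 higher and 0 lower at an adjusted p under 0.05, with no share of all genes given for it.

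The median log2 fold change of the 38 genes was -0.15 on the LID and 0.16 on the ND, and those of all genes tested were 0.012 and 0.021. The medians of the 38 changed when single mice were left out. On the ND the median was 0.014 without *Glis3*-Pax8Cre(ND) replicate 4 and -0.043 without the 4 mice rich in thymocyte markers, and with the pan-leukocyte covariate it was -0.016. On the ND it was also 0.24 without WT(ND) replicate 4 and 0.27 without *Glis3*-Pax8Cre(ND) replicate 1. The LID median was -0.022 without *Glis3*-Pax8Cre(LID) replicate 3, -0.24 without *Glis3*-Pax8Cre(LID) replicate 4 and 0.011 with library size alone. Without the 4 mice with over 100 CPM of T cell and thymocyte markers, 7 were higher and 8 lower on the LID, and 4 were higher and 0 lower on the ND. The shares of all genes called are not given for this fit or the other fits of this paragraph. Scaling by library size alone moved the median of all genes by 0.146 on the LID and 0.122 on the ND and gave 4 lower genes on the LID and 7 higher genes on the ND. The calls of *Stat2*, *Isg15* and *Xaf1* on the LID were lost with that scaling. On the LID the number of lower genes ran from 4 to 11 when each mouse was left out in turn, with 11 without *Glis3*-Pax8Cre(ND) replicate 4. It was 4 without replicate 4 of WT(LID) and without replicate 1 or 3 of *Glis3*-Pax8Cre(LID). On the ND the number of higher genes was 7 without *Glis3*-Pax8Cre(ND) replicate 1.

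**Figure D4:**
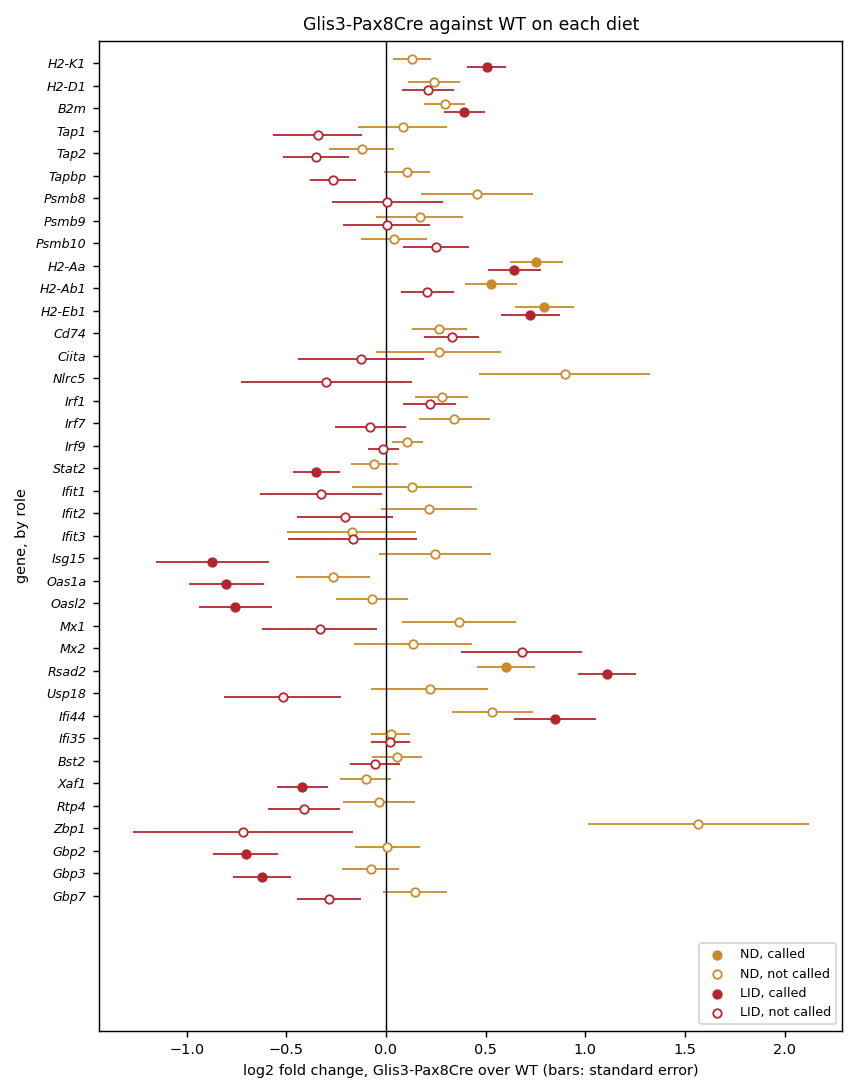
Log2 fold change in *Glis3*-Pax8Cre over WT mice for each of the 38 genes on ND (ochre) and on LID (red), with bars for the standard error and filled points for genes called at an adjusted p under 0.05. Filled points lie on both sides of 0 on LID, 6 higher and 7 lower, and only on the higher side on ND, where there are 4.

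The interaction asks whether the log2 change from ND to LID differed between the genotypes. By edgeR's test 0 of the 38 genes were called in either direction, against 4.43% of all genes tested called higher and 7.41% lower. At an unadjusted p under 0.05 there were 2 higher, *H2-K1* and *Rsad2*, and 6 lower, *Gbp2*, *Zbp1*, *Isg15*, *Gbp3*, *Oasl2* and *Tapbp*. These are 8 of the 38, and a larger share of all genes tested passed that limit, 4416 of 16630. DESeq2 called 0 higher and 2 lower, *Gbp2* and *Isg15*, and edgeR with the replicate block called 5 lower, *Gbp2*, *Gbp3*, *Isg15*, *Oasl2* and *Zbp1*. When each mouse was left out in turn, between 0 and 3 genes were called lower and between 0 and 1 higher. A gene that fell in *Glis3*-Pax8Cre mice and was not called in WT mice is therefore not shown to differ between them in this fit.

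Among the 6 class I and peptide loading genes, the changes with diet and genotype differed from gene to gene. *H2-K1*, a class I heavy chain, was at 550.2, 551, 572 and 572 CPM in the WT(ND) mice and 428, 402, 422 and 413 CPM in the WT(LID) mice. The *Glis3*-Pax8Cre mice were at 579.8, 672, 649 and 557 CPM on ND and 507, 712, 556 and 587 CPM on LID. The WT(LID) mice were below all other mice. *H2-K1* was therefore lower on LID in WT mice (log2 fold change -0.43 ± 0.10, adjusted p = 0.00217), and on LID it was higher in *Glis3*-Pax8Cre than in WT mice (0.51 ± 0.10, adjusted p = 0.000951). Between the *Glis3*-Pax8Cre groups it was not called (-0.057 ± 0.10, adjusted p = 0.697). The H2 class I genes resemble each other, so reads may be divided among them.

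*B2m* was at 443, 509.5, 537 and 481 CPM in the WT(ND) mice and 414, 428, 383 and 409 CPM in the WT(LID) mice, and the groups did not overlap. It was at 528, 613, 641 and 636 CPM in the *Glis3*-Pax8Cre(ND) mice and 499.8, 651, 476 and 519 CPM in the *Glis3*-Pax8Cre(LID) mice. All *Glis3*-Pax8Cre(LID) mice were above all WT(LID) mice, with a log2 fold change of 0.39 ± 0.10 (adjusted p = 0.00895). The decrease on LID in WT mice was -0.27 ± 0.10 (adjusted p = 0.0461), and this call depended on the fit. Adjusted p ran from 0.00806 to 0.136 over 27 alternative fits, and it was over 0.05 with RLE normalization, with *Tg* left out, with no filter, without the 4 mice rich in thymocyte markers and without replicate 2, 3 or 4 of WT(ND), replicate 2 or 3 of *Glis3*-Pax8Cre(ND), replicate 1, 2, 3 or 4 of WT(LID) or replicate 1 or 4 of *Glis3*-Pax8Cre(LID). On the ND *B2m* was not called between genotypes (adjusted p = 0.0556, 0.0193 to 0.271 over 27 alternative fits), although DESeq2 called it higher. Part of *B2m* overlaps the gene *Patl2*.

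*Tapbp* was the only gene of the 38 that was higher on LID in both genotypes. It was at 226, 209.95, 218 and 262 CPM in the WT(ND) mice and 460.2, 463, 456 and 446 CPM in the WT(LID) mice, a 1.99-fold increase (log2 0.99 ± 0.12, adjusted p = 8.86e-06). The *Glis3*-Pax8Cre mice were at 220.5, 281, 287 and 198 CPM on ND and 335, 423, 387 and 375 CPM on LID (log2 0.62 ± 0.12, adjusted p = 0.00128). Every LID mouse was above every ND mouse of the 16. On the LID the *Glis3*-Pax8Cre mice were all below the WT mice, and the difference was not called (log2 -0.26 ± 0.11, adjusted p = 0.0977, 0.0199 to 0.392 over 27 alternative fits).

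*Tap2*, a subunit of the peptide transporter, changed the other way. It was at 76.6, 60.1, 66.3 and 77.95 CPM in the WT(ND) mice and 44.9, 50.9, 56.3 and 43.7 CPM in the WT(LID) mice (log2 -0.52 ± 0.16, adjusted p = 0.0181). It was at 47.5, 65.2, 56.8 and 88.3 CPM in the *Glis3*-Pax8Cre(ND) mice and 31.5, 42.04, 35.9 and 44.1 CPM in the *Glis3*-Pax8Cre(LID) mice (log2 -0.75 ± 0.16, adjusted p = 0.00406). Both falls passed the test, but the call in WT mice was lost without replicate 4 of WT(ND) or replicate 4 of WT(LID) (adjusted p 0.00152 to 0.0566 over 27 alternative fits). Its partner *Tap1* was lower on LID in *Glis3*-Pax8Cre mice (log2 -0.93 ± 0.23, adjusted p = 0.00765, 0.000429 to 0.0517 over 28 alternative fits), and was not called in WT mice (log2 -0.51 ± 0.22, adjusted p = 0.082, 0.00282 to 0.196 over 27 alternative fits). *H2-D1*, a further class I heavy chain, was at 137 to 162 CPM in the WT(ND) mice, 147 to 196 CPM in the *Glis3*-Pax8Cre(ND) mice, 147 to 161 CPM in the WT(LID) mice and 157 to 242 CPM in the *Glis3*-Pax8Cre(LID) mice and was called in none of the 5 tests. The *H2-D1* gene overlaps *H2-L*, so its reads are less certain.

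The 3 immunoproteasome genes encode the catalytic subunits that interferon-gamma induces. *Psmb10* was at 27.5, 28.8, 27.2 and 33.3 CPM in the WT(ND) mice and 15.7, 14.9, 18.1 and 19.02 CPM in the WT(LID) mice, without overlap (log2 -0.79 ± 0.17, adjusted p = 0.00143). Among the *Glis3*-Pax8Cre mice it was at 27.2, 28.9, 24.9 and 38.98 CPM on ND and 16.4, 24.3, 15.5 and 24.6 CPM on LID. *Psmb10* was lower on LID in these mice as well (log2 -0.57 ± 0.17, adjusted p = 0.0201), a call that was lost with only the 8 mice compared, with the pan-leukocyte marker covariate and without replicate 4 of *Glis3*-Pax8Cre(ND) or replicate 1 or 3 of *Glis3*-Pax8Cre(LID) (adjusted p 0.00541 to 0.0737 over 28 alternative fits).

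*Psmb9* was at 14.95, 16.5, 14.7 and 17.7 CPM in the WT(ND) mice and 8.22, 8.11, 10.8 and 9.16 CPM in the WT(LID) mice. It was at 13.8, 15.7, 13.97 and 28.2 CPM in the *Glis3*-Pax8Cre(ND) mice and 7.05, 10.5, 7.15 and 11.6 CPM in the *Glis3*-Pax8Cre(LID) mice. The LID mice were all below the ND mice of their genotype, with log2 fold changes of -0.82 ± 0.22 in WT mice (adjusted p = 0.00747) and -0.98 ± 0.22 in *Glis3*-Pax8Cre mice (adjusted p = 0.00477). *Psmb8* was at 29.9, 29.3, 27.6 and 33.8 CPM in the WT(ND) mice, 19.2, 18.8, 27.1 and 22.1 CPM in the WT(LID) mice, 30.9, 31.5, 29.1 and 73.97 CPM in the *Glis3*-Pax8Cre(ND) mice and 16.7, 25.6, 15.96 and 29.5 CPM in the *Glis3*-Pax8Cre(LID) mice. In *Glis3*-Pax8Cre(ND) replicate 4, the mouse with the most T cell and thymocyte markers, it was more than 2 other mice of the group together. The decrease in *Glis3*-Pax8Cre mice (log2 -0.92 ± 0.28, adjusted p = 0.028) was lost with only the 8 mice compared and without replicate 4 of *Glis3*-Pax8Cre(ND) or replicate 1 or 3 of *Glis3*-Pax8Cre(LID) (adjusted p 0.00351 to 0.121 over 28 alternative fits). In WT mice *Psmb8* was not called (log2 -0.47 ± 0.28, adjusted p = 0.199, 0.00402 to 0.35 over 27 alternative fits). None of the 3 genes differed between genotypes on either diet by the test.

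The MHC class II genes moved with diet, and some of them with genotype. All 4 were lower on LID in both genotypes, where 20.8% of all genes were in WT and 12.3% in *Glis3*-Pax8Cre mice. Between genotypes 3 of 4 were higher in *Glis3*-Pax8Cre mice on the ND and 2 of 4 on the LID. Of all genes 10.3% and 14.9% were, and of all 38 genes 10.5% and 15.8%. The summed level of the 4 genes was 796 to 999 CPM in the WT(ND) mice, 1189 to 1317 CPM in the *Glis3*-Pax8Cre(ND) mice, 375 to 571 CPM in the WT(LID) mice and 509.9 to 720.2 CPM in the *Glis3*-Pax8Cre(LID) mice. The ND and LID mice of a genotype did not overlap, and neither did the genotypes on the ND.

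*H2-Aa*, an alpha chain, was at 105, 159, 143 and 133 CPM in the WT(ND) mice and 219.5, 225, 227 and 239 CPM in the *Glis3*-Pax8Cre(ND) mice, 1.69-fold higher (log2 0.75 ± 0.13, adjusted p = 0.0014). On the LID it was at 58.8, 68.7, 87.3 and 63.9 CPM in WT and 109, 121, 90.9 and 115 CPM in *Glis3*-Pax8Cre mice (log2 0.64 ± 0.13, adjusted p = 0.00182). On each diet all *Glis3*-Pax8Cre mice were above all WT mice. From ND to LID *H2-Aa* fell by 1.94-fold in WT mice (adjusted p = 5.06e-05) and by 2.09-fold in *Glis3*-Pax8Cre mice (adjusted p = 6.40e-05).

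*H2-Eb1*, a beta chain, had the same order of groups. It was at 88.2, 121, 118 and 101 CPM in the WT(ND) mice and 180.4, 193, 189.8 and 179.7 CPM in the *Glis3*-Pax8Cre(ND) mice (log2 0.80 ± 0.15, adjusted p = 0.00189). On the LID it was at 42.1, 55.2, 70.3 and 47.9 CPM in WT and 81.3, 106, 75.1 and 92.98 CPM in *Glis3*-Pax8Cre mice (log2 0.72 ± 0.15, adjusted p = 0.00162). The genotypes did not overlap on either diet. The decrease with the LID was -0.99 ± 0.15 on the log2 scale in WT mice and -1.06 ± 0.15 in *Glis3*-Pax8Cre mice (adjusted p = 8.71e-05 and 0.000145).

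*H2-Ab1*, the beta chain that pairs with *H2-Aa*, was at 112, 148, 119 and 129 CPM in the WT(ND) mice and 175, 187, 169 and 201 CPM in the *Glis3*-Pax8Cre(ND) mice, without overlap (log2 0.53 ± 0.13, adjusted p = 0.0121). On the LID it was at 65.3, 76.2, 97.4 and 73.4 CPM in WT and 79.7, 105, 76.3 and 99.96 CPM in *Glis3*-Pax8Cre mice, which overlapped (log2 0.21 ± 0.13, adjusted p = 0.263). It fell with the LID in both genotypes (log2 -0.70 ± 0.13, adjusted p = 0.000601, in WT mice and -1.02 ± 0.13, adjusted p = 8.15e-05, in *Glis3*-Pax8Cre mice). *Cd74* was at 491, 570.5, 586 and 526 CPM in the WT(ND) mice, 641, 711, 695 and 569 CPM in the *Glis3*-Pax8Cre(ND) mice, 209, 263, 316 and 233 CPM in the WT(LID) mice and 282, 388, 268 and 345 CPM in the *Glis3*-Pax8Cre(LID) mice. It fell with the LID by 2.13-fold in WT mice (adjusted p = 2.12e-05) and 2.04-fold in *Glis3*-Pax8Cre mice (adjusted p = 0.000113). Between the genotypes *Cd74* was not called, with log2 fold changes of 0.27 ± 0.14 on the ND (adjusted p = 0.187) and 0.33 ± 0.14 on the LID (adjusted p = 0.0838, 0.0141 to 0.253 over 27 alternative fits).

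The cells that make most class II protein were followed by their own markers. The sum of 6 macrophage markers was 162 to 240.4 CPM in the WT(ND) mice, 274 to 326 CPM in the *Glis3*-Pax8Cre(ND) mice, 214 to 233 CPM in the WT(LID) mice and 194 to 261 CPM in the *Glis3*-Pax8Cre(LID) mice. On the ND all 6 were called higher in *Glis3*-Pax8Cre mice, and on the LID 1 of 6, where 10.3% and 14.9% of all genes were. With the LID 2 of the 6 rose in WT mice, where 20.9% of all genes did. In *Glis3*-Pax8Cre mice 4 fell, where 12.3% of all genes did. Markers of dendritic cells summed to 28.4 to 30.4 CPM in the WT(ND) mice, 24.8 to 42.2 CPM in the *Glis3*-Pax8Cre(ND) mice, 23.5 to 26.7 CPM in the WT(LID) mice and 19.1 to 22.6 CPM in the *Glis3*-Pax8Cre(LID) mice. Of these markers 2 of 6 were lower on LID in WT mice and 1 in *Glis3*-Pax8Cre mice, where 20.8% and 12.3% of all genes were. B cell markers were at 7.62 to 10.6, 6.90 to 13.6, 9.28 to 10.1 and 6.000 to 10.5 CPM in the same order, with 5 of 6 listed genes in the table. The part of these cells in the class II values was not tested.

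**Figure D5:**
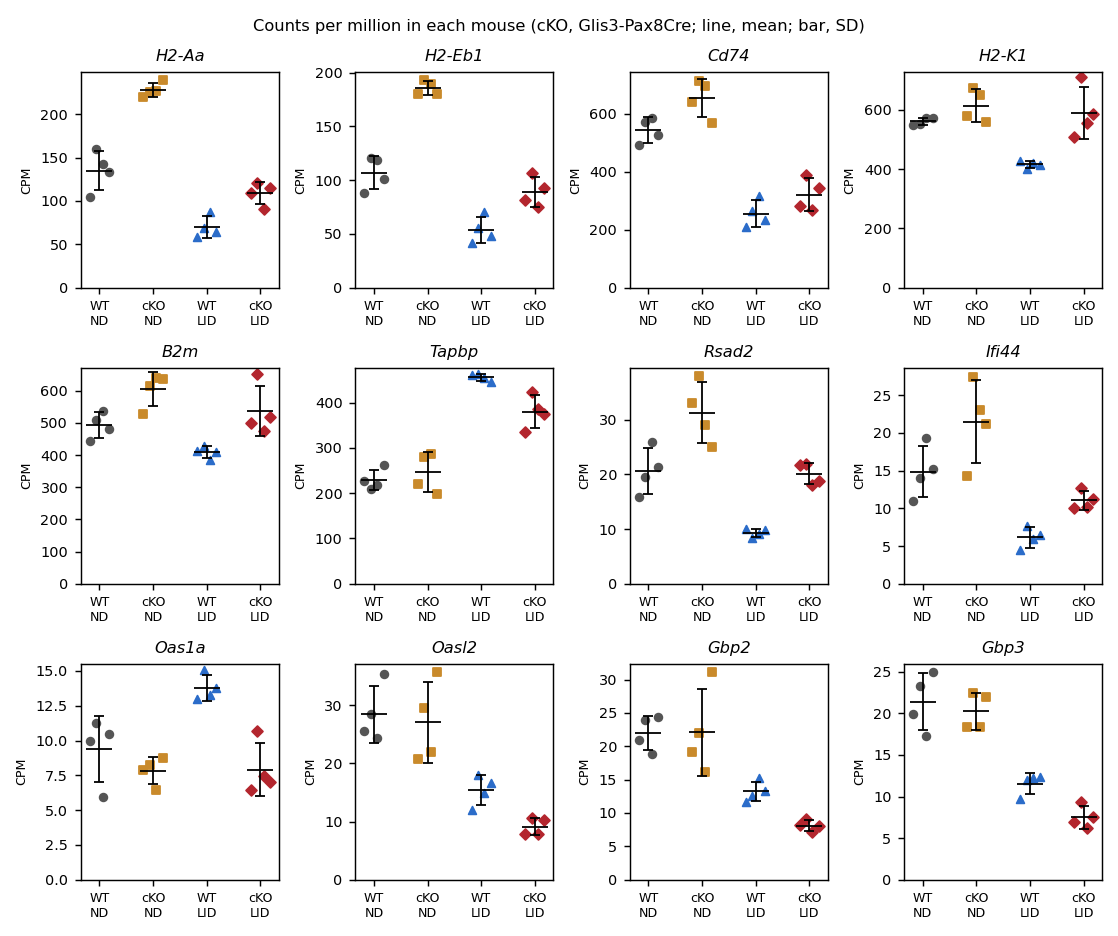
CPM in each mouse (points), with the mean (line) and SD (bar) of each group of 4, for 12 genes from the role groups. *H2-Aa*, *H2-Eb1* and *Rsad2* are higher in *Glis3*-Pax8Cre (cKO) than in WT mice on both diets, *Tapbp* is higher on LID, and *Gbp2*, *Gbp3* and *Oasl2* are lowest in *Glis3*-Pax8Cre(LID).

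The regulators were lower on LID as well, 4 of 6 in WT mice and 6 of 6 in *Glis3*-Pax8Cre mice. Among all genes tested 20.8% and 12.3% were called lower. *Irf9*, the DNA-binding subunit of ISGF3, varied little between mice. It was at 48.01, 49.5, 52.9 and 53.5 CPM in the WT(ND) mice and 31.6, 36.2, 32.9 and 34.98 CPM in the WT(LID) mice (log2 -0.59 ± 0.077, adjusted p = 2.63e-05). It was at 47.8, 61.8, 54.9 and 54.9 CPM in the *Glis3*-Pax8Cre(ND) mice and 33.7, 35.3, 31.8 and 33.7 CPM in the *Glis3*-Pax8Cre(LID) mice (log2 -0.71 ± 0.077, adjusted p = 1.76e-05). The genotypes overlapped on both diets and were not called different.

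*Stat2*, the partner of IRF9 in ISGF3, was at 49.04, 46.7, 38.2 and 50.2 CPM in the WT(ND) mice and 34.2, 38.1, 33.1 and 35.01 CPM in the WT(LID) mice (log2 -0.39 ± 0.12, adjusted p = 0.0144). It was at 36.01, 47.6, 38.4 and 54.7 CPM in the *Glis3*-Pax8Cre(ND) mice and 27.9, 26.5, 26.8 and 29.1 CPM in the *Glis3*-Pax8Cre(LID) mice (log2 -0.68 ± 0.12, adjusted p = 0.000752). On the LID all *Glis3*-Pax8Cre mice were below all WT mice (log2 -0.35 ± 0.12, adjusted p = 0.0347). The test was no longer passed with library size alone and without replicate 2 or 4 of WT(LID) or replicate 1, 2 or 3 of *Glis3*-Pax8Cre(LID) (adjusted p 0.0037 to 0.219 over 27 alternative fits).

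*Irf7*, which amplifies the type I interferon response, was at 13.6, 18.6, 16.1 and 22.7 CPM in the WT(ND) mice, 9.71, 10.8, 10.6 and 13.8 CPM in the WT(LID) mice, 19.3, 21.6, 19.1 and 29.9 CPM in the *Glis3*-Pax8Cre(ND) mice and 10.8, 12.5, 8.50 and 10.7 CPM in the *Glis3*-Pax8Cre(LID) mice. It was lower on LID in both genotypes, with log2 fold changes of -0.66 ± 0.18 in WT mice (adjusted p = 0.00774) and -1.08 ± 0.18 in *Glis3*-Pax8Cre mice (adjusted p = 0.00058). *Irf1*, a transcription factor gene that interferon-gamma induces early, was at 44.2, 42.7, 37.6 and 41.3 CPM in the WT(ND) mice, 37.98, 26.8, 28.8 and 29.9 CPM in the WT(LID) mice, 51.9, 46.1, 44.5 and 58.9 CPM in the *Glis3*-Pax8Cre(ND) mice and 40.9, 29.2, 31.7 and 41.7 CPM in the *Glis3*-Pax8Cre(LID) mice. Its decrease was smaller, -0.43 ± 0.13 in WT mice (adjusted p = 0.0177) and -0.49 ± 0.13 in *Glis3*-Pax8Cre mice (adjusted p = 0.0148). The call in WT mice was lost without the 4 mice rich in thymocyte markers and without replicate 2 or 3 of WT(LID) (adjusted p 0.00321 to 0.0659 over 27 alternative fits).

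*Nlrc5*, the activator of class I genes, was at 5.97, 8.41, 4.65 and 8.62 CPM in the WT(ND) mice, 3.56, 5.14, 5.61 and 5.04 CPM in the WT(LID) mice, 5.58, 8.38, 6.80 and 30.6 CPM in the *Glis3*-Pax8Cre(ND) mice and 3.23, 3.71, 4.13 and 4.66 CPM in the *Glis3*-Pax8Cre(LID) mice. The value of 30.6 CPM was that of *Glis3*-Pax8Cre(ND) replicate 4. *Nlrc5* was lower on LID in *Glis3*-Pax8Cre mice (log2 -1.71 ± 0.44, adjusted p = 0.0112), a call lost with only the 8 mice compared (adjusted p 0.000268 to 0.0731 over 28 alternative fits). *Ciita*, the activator of class II genes, was lower there too (log2 -0.96 ± 0.32, adjusted p = 0.0381), and that call was lost with only the 8 mice compared, with the pan-leukocyte marker covariate and without replicate 4 of *Glis3*-Pax8Cre(ND) or replicate 1, 2 or 3 of *Glis3*-Pax8Cre(LID) (adjusted p 0.0117 to 0.138 over 28 alternative fits). In WT mice neither was called in the fit over all mice. Without the 4 mice rich in thymocyte markers both were called lower there (adjusted p = 0.0246 for *Ciita* and 0.0426 for *Nlrc5*), and *Ciita* was also called with the pan-leukocyte covariate (adjusted p = 0.0201) and the T cell and thymocyte covariate (adjusted p = 0.0438). Between the genotypes on the ND, where the class II genes *H2-Aa*, *H2-Ab1* and *H2-Eb1* were higher, *Ciita* was not called (log2 0.26 ± 0.31, adjusted p = 0.589).

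Of the 16 interferon-induced effectors, 10 were lower on LID in WT mice (62.5%) and 15 in *Glis3*-Pax8Cre mice (93.8%). Among all genes tested 20.8% and 12.3% were. Between genotypes on the LID 2 of the 16 were higher (12.5%) and 4 lower (25%), where 14.9% and 15.4% of all genes were. *Rsad2*, which encodes the antiviral enzyme viperin, was at 15.8, 19.5, 25.9 and 21.3 CPM in the WT(ND) mice and 33.00, 38.04, 29.1 and 25.01 CPM in the *Glis3*-Pax8Cre(ND) mice (log2 0.60 ± 0.14, adjusted p = 0.00904). On the LID it was at 9.997, 8.44, 9.13 and 9.75 CPM in WT and 21.7, 21.9, 18.1 and 18.8 CPM in *Glis3*-Pax8Cre mice, 2.16-fold higher (log2 1.11 ± 0.15, adjusted p = 4.03e-05). On the LID the genotypes did not overlap, and on the ND 1 WT mouse was above the lowest *Glis3*-Pax8Cre mouse. It fell with the LID in both genotypes (log2 -1.14 ± 0.15, adjusted p = 2.07e-05, in WT mice and -0.64 ± 0.14, adjusted p = 0.00501, in *Glis3*-Pax8Cre mice). The call between genotypes on the ND was lost with only the 8 mice compared (adjusted p 0.000839 to 0.0555 over 27 alternative fits).

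*Ifi44*, an interferon-induced gene of the antiviral response, resembled *Rsad2*. It was at 11.03, 14.01, 19.3 and 15.2 CPM in the WT(ND) mice, 14.2, 27.5, 23.02 and 21.2 CPM in the *Glis3*-Pax8Cre(ND) mice, 4.42, 7.71, 5.97 and 6.43 CPM in the WT(LID) mice and 10.1, 12.8, 10.1 and 11.2 CPM in the *Glis3*-Pax8Cre(LID) mice. All *Glis3*-Pax8Cre(LID) mice were above all WT(LID) mice (log2 0.85 ± 0.21, adjusted p = 0.00556). With the LID it fell by 2.43-fold in WT mice (adjusted p = 0.000177) and 1.95-fold in *Glis3*-Pax8Cre mice (adjusted p = 0.00345). On the ND it was not called (log2 0.53 ± 0.20, adjusted p = 0.0783, 0.0237 to 0.271 over 27 alternative fits).

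*Oas1a* and *Oasl2* belong to the 2′-5′-oligoadenylate synthetase family, whose enzymes sense double-stranded RNA. *Oas1a* was at 9.98, 11.3, 5.93 and 10.5 CPM in the WT(ND) mice and 12.98, 15.1, 13.3 and 13.7 CPM in the WT(LID) mice, so that every LID mouse was above every ND mouse (log2 0.55 ± 0.19, adjusted p = 0.0276). This call was lost with library size alone, without the 4 mice rich in thymocyte markers and without replicate 3 of WT(ND) or replicate 2 or 4 of WT(LID) (adjusted p 0.00962 to 0.11 over 27 alternative fits). The level of *Oas1a* in *Glis3*-Pax8Cre mice was 7.90, 8.24, 6.45 and 8.74 CPM on ND and 6.44, 10.7, 7.47 and 7.05 CPM on LID, which overlapped. On the LID it was lower in *Glis3*-Pax8Cre than in WT mice without overlap (log2 -0.80 ± 0.19, adjusted p = 0.00427). Reads of *Oas1a* may be shared with its near copy *Oas1g*.

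*Oasl2* was at 25.5, 28.5, 24.5 and 35.3 CPM in the WT(ND) mice and 12.1, 17.95, 14.97 and 16.6 CPM in the WT(LID) mice. It was at 20.8, 29.6, 22.05 and 35.7 CPM in the *Glis3*-Pax8Cre(ND) mice and 7.90, 10.6, 7.83 and 10.2 CPM in the *Glis3*-Pax8Cre(LID) mice. The LID mice were below the ND mice in both genotypes, with log2 fold changes of -0.89 ± 0.18 in WT (adjusted p = 0.00113) and -1.57 ± 0.19 in *Glis3*-Pax8Cre mice (adjusted p = 3.37e-05). On the LID the *Glis3*-Pax8Cre mice were all below the WT mice (log2 -0.76 ± 0.18, adjusted p = 0.00526), and on the ND the genotypes overlapped (log2 -0.071 ± 0.18, adjusted p = 0.818).

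*Xaf1*, which promotes apoptosis, was at 13.6, 13.7, 13.9 and 16.3 CPM in the WT(ND) mice, 7.78, 10.02, 8.39 and 9.01 CPM in the WT(LID) mice, 11.2, 13.8, 12.6 and 16.02 CPM in the *Glis3*-Pax8Cre(ND) mice and 6.14, 7.96, 5.74 and 6.50 CPM in the *Glis3*-Pax8Cre(LID) mice. It fell with the LID in WT mice (log2 -0.71 ± 0.13, adjusted p = 0.00045) and in *Glis3*-Pax8Cre mice (log2 -1.03 ± 0.13, adjusted p = 6.60e-05). The call of a lower level in *Glis3*-Pax8Cre than in WT mice on LID (log2 -0.42 ± 0.13, adjusted p = 0.0228) was lost with library size alone and without replicate 2 or 4 of WT(LID) or replicate 1, 3 or 4 of *Glis3*-Pax8Cre(LID) (adjusted p 0.00682 to 0.149 over 27 alternative fits). *Isg15*, a ubiquitin-like modifier, was at 5.07 to 6.24 CPM in the WT(LID) mice and 2.51 to 4.52 CPM in the *Glis3*-Pax8Cre(LID) mice (log2 -0.87 ± 0.28, adjusted p = 0.0296). The call of *Isg15* was lost with library size alone and without replicate 1 or 4 of WT(LID) or replicate 1, 3 or 4 of *Glis3*-Pax8Cre(LID) (adjusted p 0.00549 to 0.0812 over 27 alternative fits). Between WT(ND) and WT(LID) *Isg15* was not called (log2 -0.016 ± 0.28, adjusted p = 0.972).

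The other 10 effectors were not called between genotypes on either diet. *Ifit1*, *Ifit2* and *Ifit3*, whose proteins bind viral RNA, lie together on chromosome 19, between 5.871 and 5.961 Mb from *Glis3*, and *Ifit3* has the near copy *Ifit3b*. *Ifit1* was at 6.43 to 11.97 CPM in the WT(ND) mice and 3.28 to 3.95 CPM in the WT(LID) mice, and at 6.18 to 17.8 CPM in the *Glis3*-Pax8Cre(ND) mice and 2.39 to 3.97 CPM in the *Glis3*-Pax8Cre(LID) mice. It fell with the LID by 2.45-fold in WT mice (adjusted p = 0.00354) and 3.35-fold in *Glis3*-Pax8Cre mice (adjusted p = 0.00103). *Ifit3* fell by 2.58-fold and 2.57-fold (adjusted p = 0.00378 and 0.00781). *Ifit2* was called lower in *Glis3*-Pax8Cre mice (log2 -0.83 ± 0.24, adjusted p = 0.0208), a call lost with only the 8 mice compared, with the pan-leukocyte marker covariate and without replicate 3 of *Glis3*-Pax8Cre(LID) (adjusted p 0.00455 to 0.0674 over 28 alternative fits). For WT mice adjusted p was 0.189, and *Ifit2* was called lower there with the pan-leukocyte covariate, without the 4 mice rich in thymocyte markers and without *Glis3*-Pax8Cre(ND) replicate 4 (adjusted p 0.0271 to 0.53 over 27 alternative fits).

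*Bst2*, *Ifi35*, *Mx2* and *Rtp4* were lower on LID in both genotypes. *Bst2*, which encodes the virus-tethering protein tetherin, was at 33.03 to 40.7 CPM in the WT(ND) mice and 22.6 to 25.8 CPM in the WT(LID) mice (log2 -0.57 ± 0.13, adjusted p = 0.0021), and its log2 fold change in *Glis3*-Pax8Cre mice was -0.68 ± 0.13 (adjusted p = 0.00137). *Rtp4* had log2 fold changes of -0.80 ± 0.18 and -1.17 ± 0.18 (adjusted p = 0.00254 and 0.000363). The antiviral GTPase gene *Mx2* was at 2.65 to 3.59 CPM in the WT(ND) mice and 0.756 to 1.38 CPM in the WT(LID) mice (log2 -1.54 ± 0.31, adjusted p = 0.000907). In *Glis3*-Pax8Cre mice the log2 fold change of *Mx2* was -0.99 ± 0.30 (adjusted p = 0.0253), and this call was lost with only the 8 mice compared, without the 4 mice rich in thymocyte markers and without replicate 2 or 3 of *Glis3*-Pax8Cre(ND) or replicate 1 or 4 of *Glis3*-Pax8Cre(LID) (adjusted p 0.00438 to 0.111 over 28 alternative fits).

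The decrease of *Ifi35* was small and uncertain in both genotypes. In WT mice it was -0.30 ± 0.10 on the log2 scale (adjusted p = 0.0208), and the call was lost without the 4 mice rich in thymocyte markers and without replicate 1 or 4 of WT(ND) or replicate 2 or 3 of WT(LID) (adjusted p 0.00518 to 0.124 over 27 alternative fits). In *Glis3*-Pax8Cre mice it was -0.31 ± 0.10 (adjusted p = 0.0329), with the call lost with only the 8 mice compared, with the pan-leukocyte marker covariate, with a replicate block fitted to these 8 mice, without the 4 mice rich in thymocyte markers and without replicate 1 or 2 of *Glis3*-Pax8Cre(ND) or replicate 1, 3 or 4 of *Glis3*-Pax8Cre(LID) (adjusted p 0.00337 to 0.137 over 28 alternative fits). Replicate numbers were treated as pairs in these 8 mice, from the counts alone, and the block ended this call and no other.

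*Mx1*, *Usp18*, *Zbp1* and *Isg15* were called lower on LID in *Glis3*-Pax8Cre mice and not called in WT mice. *Usp18*, which removes ISG15 from proteins, was at 4.18 to 13.04 CPM in the *Glis3*-Pax8Cre(ND) mice and 2.41 to 3.73 CPM in the *Glis3*-Pax8Cre(LID) mice (log2 -1.22 ± 0.30, adjusted p = 0.00782). For WT mice its adjusted p was 0.203, and it was called lower there with only the 8 mice compared (adjusted p = 0.0359), with the pan-leukocyte covariate (adjusted p = 0.0436) and without *Glis3*-Pax8Cre(ND) replicate 4 (adjusted p = 0.042). *Isg15* was at 4.27 to 11.4 CPM in the *Glis3*-Pax8Cre(ND) mice, against 2.51 to 4.52 CPM on LID as given above (log2 -1.13 ± 0.29, adjusted p = 0.00935), and its call was lost without the 4 mice rich in thymocyte markers (adjusted p 0.0007 to 0.0592 over 28 alternative fits). *Mx1* had a log2 fold change of -1.04 ± 0.29 (adjusted p = 0.0163), lost with the pan-leukocyte marker covariate and without the 4 mice rich in thymocyte markers (adjusted p 0.00244 to 0.0832 over 28 alternative fits). *Zbp1*, a sensor of nucleic acids, was at 2.95, 2.75, 2.34 and 18.1 CPM in the *Glis3*-Pax8Cre(ND) mice and 0.972, 1.55, 1.04 and 2.09 CPM in the *Glis3*-Pax8Cre(LID) mice. The log2 fold change was -2.22 ± 0.57 (adjusted p = 0.011), and the call was lost with only the 8 mice compared (adjusted p 0.00458 to 0.0867 over 27 alternative fits).

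For 7 of the genes called lower on LID in *Glis3*-Pax8Cre mice the size of the decline moved by over 1.5 times without *Glis3*-Pax8Cre(ND) replicate 4, the mouse with the most T cell and thymocyte markers. Without it the log2 fold change was -0.93 for *Zbp1*, -0.83 for *Nlrc5* and -0.73 for *Usp18*, against -2.22, -1.71 and -1.22 with it. It was -0.52 for *Ciita*, -0.48 for *Psmb8*, -0.61 for *Tap1* and -0.47 for *Ifit2*. All 7 stayed lower on LID, and the calls of *Zbp1*, *Nlrc5*, *Usp18*, *Tap1* and *Ifit2* were kept.

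The 3 guanylate-binding proteins are interferon-gamma-induced GTPases that act against pathogens within the cell, and their genes lie close together on chromosome 3. *Gbp2* was at 20.95, 23.9, 18.9 and 24.3 CPM in the WT(ND) mice and 11.7, 12.6, 15.2 and 13.3 CPM in the WT(LID) mice. It was at 19.1, 22.1, 16.2 and 31.2 CPM in the *Glis3*-Pax8Cre(ND) mice and 8.16, 9.03, 7.18 and 8.09 CPM in the *Glis3*-Pax8Cre(LID) mice. The *Glis3*-Pax8Cre(LID) mice were below all other mice. *Gbp2* fell with the LID by 1.67-fold in WT mice (adjusted p = 0.00205) and 2.73-fold in *Glis3*-Pax8Cre mice (adjusted p = 2.67e-05), and on the LID it was lower in *Glis3*-Pax8Cre mice (log2 -0.70 ± 0.16, adjusted p = 0.00419). The difference between the 2 diet effects was -0.71 ± 0.23 on the log2 scale and was not called (adjusted p = 0.0577, 0.0197 to 0.245 over 26 alternative fits).

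*Gbp3* was at 19.9, 23.3, 17.3 and 25.00 CPM in the WT(ND) mice and 9.67, 11.97, 12.2 and 12.4 CPM in the WT(LID) mice. It was at 18.4, 22.5, 18.3 and 21.9 CPM in the *Glis3*-Pax8Cre(ND) mice and 6.93, 9.39, 6.16 and 7.54 CPM in the *Glis3*-Pax8Cre(LID) mice. The LID groups did not overlap, with the *Glis3*-Pax8Cre mice lower (log2 -0.62 ± 0.14, adjusted p = 0.00384). Its log2 fold change with the LID was -0.89 ± 0.14 in WT mice (adjusted p = 0.000159) and -1.44 ± 0.15 in *Glis3*-Pax8Cre mice (adjusted p = 9.89e-06).

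*Gbp7* was at 26.5, 28.7, 26.9 and 33.5 CPM in the WT(ND) mice, 19.3, 20.1, 19.3 and 21.6 CPM in the WT(LID) mice, 21.6, 34.9, 27.1 and 44.00 CPM in the *Glis3*-Pax8Cre(ND) mice and 15.9, 15.1, 15.99 and 18.7 CPM in the *Glis3*-Pax8Cre(LID) mice. It fell with the LID in WT mice (log2 -0.53 ± 0.16, adjusted p = 0.0158, lost without replicate 4 of WT(ND), 0.00085 to 0.0545 over 27 alternative fits) and in *Glis3*-Pax8Cre mice (log2 -0.96 ± 0.16, adjusted p = 0.00065). On the LID it was not called between genotypes (log2 -0.29 ± 0.16, adjusted p = 0.203, 0.028 to 0.557 over 27 alternative fits). The members of this family resemble each other, so reads may be divided among them.

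Other genes of the same pathways were taken from a list of 127, of which 115 passed the filter. With the LID 44 of the 115 fell (38.3%) and 11 rose (9.57%) in WT mice, and 60 fell (52.2%) and 9 rose (7.83%) in *Glis3*-Pax8Cre mice. Among all genes tested 20.9% rose in WT mice and 13.1% in *Glis3*-Pax8Cre mice. Of the 55 other interferon-induced genes 21 (38.2%) were lower in WT mice and 40 (72.7%) in *Glis3*-Pax8Cre mice, where 20.8% and 12.3% of all genes were. Examples in WT mice were *Tgtp1* (log2 -2.46 ± 0.24, adjusted p = 1.95e-06) and *Iigp1* (log2 -1.79 ± 0.30, adjusted p = 0.000268), which encode GTPases that interferon-gamma induces. Non-classical class I genes fell as well, 6 of 11 in each genotype, among them *H2-T23* (log2 -0.55 ± 0.13 in WT and -0.75 ± 0.13 in *Glis3*-Pax8Cre mice, adjusted p = 0.0029 and 0.000746).

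Of 7 other genes for the supply and loading of peptides, 3 rose (42.9%) and 2 fell (28.6%) with the LID in WT mice. Among all genes 20.9% rose and 20.8% fell there. In *Glis3*-Pax8Cre mice 4 of the 7 rose (57.1%), against 13.1% of all genes. The chaperone genes *Calr* (log2 1.01 ± 0.24, adjusted p = 0.00341) and *Pdia3* (log2 0.56 ± 0.20, adjusted p = 0.0302) rose on LID in WT mice, and in *Glis3*-Pax8Cre mice they rose by 0.75 ± 0.24 and 0.70 ± 0.20 (adjusted p = 0.0322 and 0.0169). Their proteins also fold other secreted proteins. Within the class II pathway, *Ctss*, a protease that trims the invariant chain, fell with the LID in both genotypes (log2 -0.68 ± 0.12 and -0.97 ± 0.12, adjusted p = 0.000246 and 3.65e-05), while *H2-DMa*, which helps to load class II molecules, rose (log2 0.51 ± 0.12 and 0.48 ± 0.12, adjusted p = 0.00271 and 0.00883).

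Between genotypes, 6 of the 12 other class II pathway genes (50%) were higher in *Glis3*-Pax8Cre mice on the LID and 5 (41.7%) on the ND, where 14.9% and 10.3% of all genes were. On both diets these included *H2-DMa*, *Ctss*, *Ifi30*, *Lgmn* and *H2-Oa*. For *Ctss* the log2 fold changes were 0.55 ± 0.12 on LID and 0.84 ± 0.12 on ND (adjusted p = 0.00204 and 0.000232), and for the lysosomal protease gene *Lgmn* 0.84 ± 0.14 and 0.87 ± 0.14 (adjusted p = 0.000265 and 0.000654). *Ctss* and *Lgmn* are also active in macrophages. Of 6 macrophage markers, 6 were called higher in *Glis3*-Pax8Cre mice on the ND and 1 on the LID. The part of macrophages in these values was not tested. Among the 55 other interferon-induced genes 2 were higher (3.64%) and 10 lower (18.2%) in *Glis3*-Pax8Cre mice on the LID, where 14.9% and 15.4% of all genes were. On the ND 8 were higher (14.5%) and 2 lower (3.64%), where 10.3% and 9.25% of all genes were.

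The interferons themselves were barely counted. All 10 listed interferon genes failed the filter, with *Ifng* at most at 0.0706 CPM and *Ifnb1* at most at 0.0140 CPM in any mouse. Of their 10 receptor subunits and kinases, 3 fell (30%) and 1 rose (10%) with the LID in WT mice, where 20.8% and 20.9% of all genes did. In the interaction 8 of the 115 listed genes (6.96%) were lower and 1, *Irf8*, higher (0.87%), where 7.41% and 4.43% of all genes were, so the share of lower genes was near the background.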

How the data were processed

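RNA was sequenced from thyroid glands of 16 mice, 4 in each of 4 groups assigned from the sample labels. Per the study's methods the authors kept read pairs of sufficient base quality, mapped them to mm10 with STAR (version 2.5 per the submitters' processing notes) and assigned them to RefSeq genes by featureCounts (1.5.0-p1), without regard to strand. The deposited values are raw counts per gene and had not been normalized. Antisense and overlapping transcripts can therefore not be told apart, and reads of near-identical genes may be lost or shared. The instrument used for each library is not given in the sources used here, so no term for it could be fitted. Columns of all 16 mice were used.

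The analysis used edgeR 4.0.16 (limma 3.58.1) under R 4.3.3. Genes kept by filterByExpr (16630 of 25611 entries) were normalized by TMM and fitted with 1 mean per group over all 16 mice by the robust quasi-likelihood method, with 12 residual degrees of freedom. The standard error was the size of the log2 fold change over the square root of F, and p-values were adjusted by the Benjamini-Hochberg method over all genes tested. Alternatives were DESeq2 1.42.0, RLE normalization, library size alone, all genes with any count (21310) or those with 10 or more counts in all mice (14265), *Tg* left out, a fit of the 8 mice compared, the replicate block, a pan-leukocyte or a T cell and thymocyte marker score as a covariate, a stricter threshold (adjusted p under 0.01 and fold change over 2) and each mouse left out in turn. The score of a mouse was the mean over the markers of the log2 of CPM plus 1, centred over the 16 mice. A replicate block fitted to the 8 *Glis3*-Pax8Cre mice and the fit without the 4 mice with over 100 CPM of T cell and thymocyte markers were chosen after seeing the data. Values in every mouse are given, in each role group, for up to 3 genes with the smallest p between genotypes on LID and between diets in WT mice, and for genes called on the ND. 1 listed gene is not reported here. Other pathway genes named with values were chosen after these were seen. The 38 genes and all lists were chosen with earlier results of these data known. The calling was tested on simulated data.

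Mice with the same replicate number are different animals. Over genes, their deviations from the group means correlated from 0.212 to 0.648 between the *Glis3*-Pax8Cre groups, so numbers were treated as pairs there, from this check of the counts alone. Replicate 4 of both groups was rich in T cell and thymocyte markers (3121 CPM on ND and 387 CPM on LID). The part of such shared tissue in the correlations was not tested. In other pairs of groups at least 1 correlation was below 0.1, and some were of like size with the opposite sign. For replicate 3 the correlation was -0.577 between *Glis3*-Pax8Cre(ND) and WT(LID) and -0.521 between WT(LID) and *Glis3*-Pax8Cre(LID). The check therefore does not show that the mice were paired. Between libraries of a group, chi-squared over its degrees of freedom was at least 33.0, so no library was counted as a duplicate. Exon lengths were the joined exons of all transcripts of a gene in GENCODE vM21, and promoters were from RefSeq.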

Additional observations from a re-analysis of the deposited data

Results flagged for a closer look

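In groups of 4 mice, the gap between the highest or lowest mouse and the next was over Dixon's 95% critical share of the group's range for 11 of 152 pairs of gene and group. Chance gives about 1 in 20. *Glis3*-Pax8Cre(ND) replicate 4 held 5 of the 11, all as the highest mouse, with 74.0 CPM of *Psmb8*, 28.2 CPM of *Psmb9*, 16.5 CPM of *Ciita*, 30.6 CPM of *Nlrc5* and 18.1 CPM of *Zbp1*, where the next mouse was at 31.5, 15.7, 7.60, 8.38 and 2.95 CPM. The same mouse had the highest sums of T cell and thymocyte markers (3121 CPM) and pan-leukocyte markers (1132 CPM), and their part in these 5 values was not tested. *Glis3*-Pax8Cre(LID) replicate 2 was the highest of its group for *H2-D1*, at 241.8 CPM with the next mouse at 159 CPM, and for *Rtp4*, at 9.24 CPM with the next at 5.89 CPM. WT(LID) replicate 1 was the lowest for *Ifit1*, at 3.28 CPM, and for *Gbp3*, at 9.67 CPM. *Ifit3* was lowest in *Glis3*-Pax8Cre(LID) replicate 3, at 3.14 CPM, and *Xaf1* was highest in WT(ND) replicate 4, at 16.3 CPM.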

How the results depend on the processing

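Over 26 to 28 alternative fits and the stricter threshold per gene and comparison, calls were lost in 147 and gained in 84 of 5315 single values, and 0 reversed. The lost calls include those that failed only the stricter threshold, which is also among the alternative counts. Of 280 alternative counts of called genes, 249 stayed within 1.5 times the main count and 31 did not. With the stricter threshold (adjusted p under 0.01 and fold change over 2) 1 gene was higher and 0 lower in *Glis3*-Pax8Cre(LID) against WT(LID), 0 higher in *Glis3*-Pax8Cre(ND) against WT(ND), 0 higher and 6 lower with the LID in WT mice, and 0 higher and 14 lower in *Glis3*-Pax8Cre mice. Library size alone gave 4 lower in *Glis3*-Pax8Cre(LID) against WT(LID), 7 higher on the ND and 1 higher with the LID in WT mice, and moved the median of all genes with the LID by -0.157 in WT and -0.133 in *Glis3*-Pax8Cre mice. The fit of only the 8 mice gave 11 lower in *Glis3*-Pax8Cre(LID) against WT(LID), and leaving out the 4 mice with many thymocyte markers gave 1 higher with the LID in WT mice. The cause of these differences was not tested. Shares of all genes are not given for the alternative fits or the stricter threshold, so these counts have no background beside them. In the interaction, with 0 called otherwise, DESeq2 gave 2 lower, at least 10 counts in every mouse 1, the pan-leukocyte covariate 1, the T cell and thymocyte covariate 2 and the replicate block 5. For the *Glis3*-Pax8Cre groups, treated as paired, the replicate block gave 33 lower and 1 higher over 16 mice, and 32 and 1 in the 8 mice alone. Outside the interaction it moved no count by over 1.5 times.

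With each mouse left out in turn, genes higher in *Glis3*-Pax8Cre(LID) against WT(LID) numbered 6 to 7 and lower 4 to 11. On the ND 4 to 7 were higher and 0 lower by edgeR in every fit. With the LID 1 to 2 were higher and 22 to 30 lower in WT mice, with 1 higher without replicate 3 of WT(ND) and without replicate 2 or 4 of WT(LID). In *Glis3*-Pax8Cre mice 1 was higher and 28 to 33 lower. In the interaction 0 to 1 were higher, with 1 without *Glis3*-Pax8Cre(LID) replicate 1, and 0 to 3 lower. Depth limits genes below about 1 CPM most, as in the shallowest library 3 counts are 0.188 CPM.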
